A study of Mus musculus with 12 samples.

Results

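The genes described here are the replication-dependent histone genes of the mouse clusters on chromosome 13 and chromosome 3. They were chosen by position and name: protein-coding genes lying at 21.7 to 23.8 Mb of chromosome 13 or 96.2 to 96.3 Mb of chromosome 3 (GRCm38) whose symbol begins with Hist, H1, H2a, H2b, H3c or H4c. H4bc24, an H4 symbol inside the chromosome 13 interval, does not begin so and is not among them. The rule used no measured value and gave 61 of 21900 protein-coding genes, namely 6 H1, 16 H2A, 15 H2B, 12 H3 and 12 H4 genes. Of these, 51 lie on chromosome 13 and 10 on chromosome 3. A gap of more than 150 kb between neighbours splits them into 4 blocks, of 17, 5 and 29 genes on chromosome 13 and of 10 genes on chromosome 3. Symbols are the current RefSeq ones (H2bc8, for example, was formerly Hist1h2bg).

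The H3K9/14ac mark, acetyl groups on lysines of the histone H3 tail that are typical of promoters in use, was mapped by ChIP-seq with the RELACS protocol, in which chromatin is barcoded inside nuclei and several samples are pooled before immunoprecipitation. The KO group comprised 3 libraries of Slc2a3-fl/fl Cd4-cre Th17 cells, which lack the glucose transporter GLUT3 from the stage at which the Cd4 promoter drives Cre, and the WT group comprised 3 libraries of wild type Th17 cells. Both groups were of the C57BL/6 strain, were cultured for 3 days under Th17 conditions from naive T cells, and were stimulated for 3 h with PMA and ionomycin with Bref A and Monensin present. The controls are labelled as wild type only, and cells without stimulation were not analysed here. The labels do not say whether the 3 libraries of a genotype came from separate mice, so spread and FDR values may reflect technical variation only.

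Replication-dependent histone genes supply the bulk of new nucleosomes when DNA is copied. They are short, lack introns in their usual form, and give transcripts that end in a stem-loop bound by SLBP instead of a poly(A) tail. Their transcription depends on NPAT, a substrate of cyclin E and CDK2, at nuclear bodies that form on the clusters, and it is largely tied to S phase. H2A and H2B genes usually sit head to head around a shared promoter, whereas H1 links nucleosomes and H3 and H4 form the core tetramer.

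Upstream sequences, 250 bases before the annotated start, were available in RefSeq (GRCm38.p6) for 56 of the 61 genes. The first pair shown is H2bc8 and H2ac8, which touch the region with the largest rise in KO and face away from each other, so their stretches overlap as reverse complements (chr13:23571150-23571399, plus strand, and chr13:23571221-23571470, minus strand). The second pair is H3c15 and H3c14, near-identical H3 copies that also adjoin rises (chr3:96239128-96239377, minus strand, and chr3:96246435-96246684, plus strand). The last are H1f1 and H4c1, which share the region with the largest fall (chr13:23763418-23763667, plus strand, and chr13:23761250-23761499, minus strand). Capitals mark 4 motifs searched on either strand. They are the letters CCAAT, known from many promoters, the TATA element with the letters TATAAA, the octamer ATTTGCAT known from H2B promoters, and the H1 box, whose letters are AAACACA. No marked motif overlaps another in these stretches.
H2bc8: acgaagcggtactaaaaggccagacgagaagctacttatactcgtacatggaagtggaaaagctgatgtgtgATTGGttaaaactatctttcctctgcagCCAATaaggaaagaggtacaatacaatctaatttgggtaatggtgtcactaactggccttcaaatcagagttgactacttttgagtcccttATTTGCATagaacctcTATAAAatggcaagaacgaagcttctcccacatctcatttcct
H2ac8: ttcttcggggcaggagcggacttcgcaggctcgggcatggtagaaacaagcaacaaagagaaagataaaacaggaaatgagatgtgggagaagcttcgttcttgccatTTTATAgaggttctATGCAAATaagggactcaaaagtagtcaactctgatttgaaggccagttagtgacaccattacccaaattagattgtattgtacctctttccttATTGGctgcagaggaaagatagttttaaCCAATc
H3c15: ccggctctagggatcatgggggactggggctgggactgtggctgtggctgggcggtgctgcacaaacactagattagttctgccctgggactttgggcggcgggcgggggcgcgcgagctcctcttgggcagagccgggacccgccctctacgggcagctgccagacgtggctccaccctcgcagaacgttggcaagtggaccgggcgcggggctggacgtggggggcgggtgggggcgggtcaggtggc
H3c14: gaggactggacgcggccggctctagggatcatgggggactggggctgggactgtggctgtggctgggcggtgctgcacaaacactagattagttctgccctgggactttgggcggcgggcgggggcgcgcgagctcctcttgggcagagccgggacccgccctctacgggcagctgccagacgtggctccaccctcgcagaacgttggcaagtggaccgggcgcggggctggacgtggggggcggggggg
H1f1: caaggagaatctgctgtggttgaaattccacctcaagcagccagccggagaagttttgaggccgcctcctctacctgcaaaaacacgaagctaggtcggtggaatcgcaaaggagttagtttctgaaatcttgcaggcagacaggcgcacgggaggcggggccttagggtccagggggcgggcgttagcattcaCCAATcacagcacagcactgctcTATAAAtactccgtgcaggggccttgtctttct
H4c1: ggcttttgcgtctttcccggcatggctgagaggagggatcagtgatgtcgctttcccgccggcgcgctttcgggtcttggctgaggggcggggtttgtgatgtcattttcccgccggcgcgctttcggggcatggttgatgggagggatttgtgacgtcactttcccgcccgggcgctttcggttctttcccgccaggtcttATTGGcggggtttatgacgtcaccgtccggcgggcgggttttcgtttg
CCAAT was present in 82.1% of the 56 upstream stretches, against 34.5% of 27025 stretches of the same length over all genes. The TATA element was present in 26 of the 56 stretches, against 3504 of the 27025 over all genes. ATTTGCAT in 17.9% against 1.61%, and AAACACA in 12.5% against 6.22%. The types differed: CCAAT was found at 16 of 16 H2A, 13 of 13 H2B and 6 of 6 H1 genes, but at 3 of 11 H4 genes. ATTTGCAT occurred at 5 H2A and 5 H2B genes and at no H1, H3 or H4 gene, and AAACACA at 5 of 6 H1 genes. Head-to-head H2A and H2B genes whose starts lie close, such as H2bc8 and H2ac8 or H2bc7 and H2ac7, have overlapping stretches. A motif in the overlap counts for both genes, so the shares are of genes and not of separate motifs. Upstream stretches of H4c17 and H4c18 were 99.2% identical, those of H3c15 and H3c14 88.7% and those of H4c11 and H4c12 86.0%. The handling of reads that align to more than 1 copy is not stated, so values of these genes are uncertain in how they divide between copies.

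Nearly all the histone genes had an H3K9/14ac peak at or near them in every library. A peak lay within 2 kb of a gene end at 61, 60 and 60 of the 61 genes in KO replicates 1, 2 and 3, and at 61 in each WT replicate. Peaks in all 6 libraries were found at 59 genes (96.7%), against 47.5% of all protein-coding genes. The exceptions were H2bc23, with no peak in KO replicate 3, and H2ac24, with none in KO replicate 2. The set includes H1f6, the testis-type H1 gene, whose peak it shares with its neighbour H4c3. The germ-line pair H2ac1 and H2bc1, which lies just outside the interval on chromosome 13, had no peak in any library.

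Peaks covered as much of the histone windows in KO as in WT, while over all genes they covered less in KO. The 2 kb windows around the histone gene ends amount to 188326 bp, of which peaks covered 51.9%, 47.3% and 46.0% in KO and 48.4%, 47.0% and 49.4% in WT. The genotypes overlap, and the log2 ratio of KO over WT was 0.00. Over the windows of all protein-coding genes the shares were 11.7%, 12.1% and 11.6% in KO and 14.3%, 13.9% and 14.0% in WT, without overlap, with a log2 ratio of -0.25. The same histone windows were divided among 64, 58 and 58 separate peaks in KO and 44, 49 and 50 in WT. Mean fragment coverage was lower in KO (1.85, 2.29 and 1.92) than in WT (3.99, 3.48 and 2.97). Its part in the number and the extent of peaks was not tested.

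**Figure D1:**
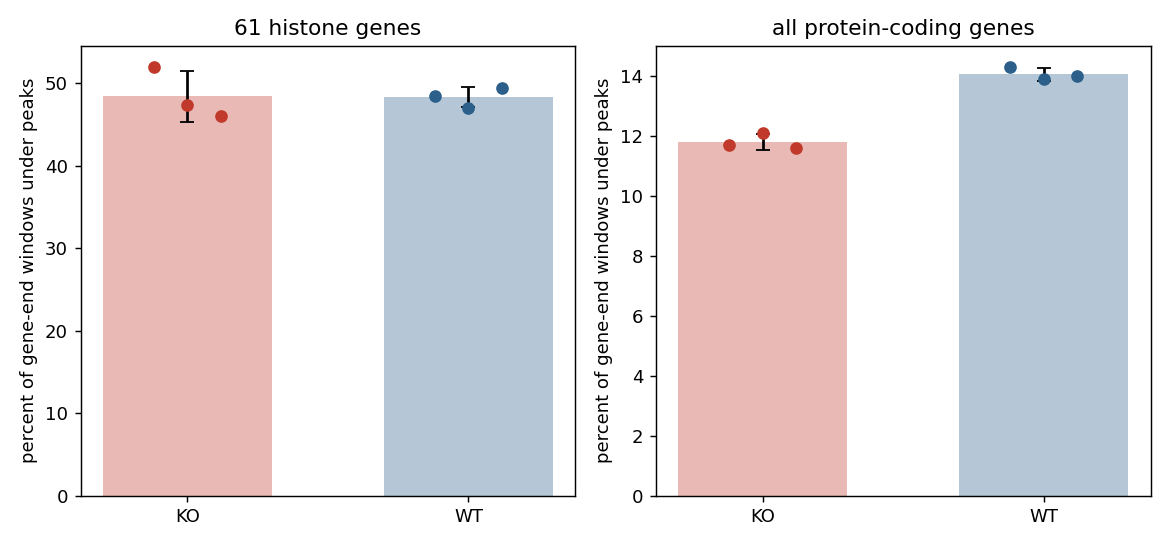
Percent of the 2 kb windows around gene ends that lay under a peak in KO (left) and WT (right) libraries, for the 61 histone genes and for all protein-coding genes. Points are libraries, bars are means and error bars are SD (n = 3 each); the genotypes overlap for the histone genes and do not overlap for all genes, and the vertical axes differ in scale.

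Peak height was compared after dividing the number of fragments at the summit by the mean fragment coverage of the library, a quantity called relative height below. The median relative height of the histone genes was 82.7, 75.8 and 65.1 in KO and 67.7, 56.3 and 70.4 in WT, against 53.5, 52.4 and 52.6 in KO and 48.4, 56.0 and 53.5 in WT over all genes with a peak. Over the 59 histone genes with a peak in all 6 libraries the median log2 ratio of KO over WT was 0.23, against 0.00 over 10408 such genes of the whole genome. In 22 of the 59 (37.3%) every KO library lay above every WT library, where the background over all genes was 18.4%. The reverse was seen in 1 of 59 (1.69%), where the background was 17.0%. That gene was H3c2, where WT replicates 1 and 2 take the height of a merged peak that reaches the neighbouring H3c3, and among peaks with their summit inside the window there was no such gene. Neighbouring genes often take the height of 1 peak, so the 59 genes hold 36 distinct sets of heights, 13 of them higher in KO without overlap. The count depends on the measure: with the deposited fold enrichment 10 of 59 were higher without overlap (16.9%, background 6.69%), and with single-read lists and that fold 6 of 58 (10.3%, background 6.95%). Heights without division by mean coverage gave 0 of 59 (background 0.355%), with a median log2 ratio of -0.55, against -0.78 over all genes. The height of a gene is that of the tallest peak touching its window, and the summit of that peak can lie at a neighbour. Of the 59 genes, 41 kept the same peak in every library when the summit had to lie in the window, 13 took another peak in at least 1 library and 5 had none in at least 1. With that condition 21 of 54 were higher in KO without overlap (38.9%, background 17.9%), and where a gene described below is given at peaks with a summit in its window, the text says so. For a single gene in 3 against 3 libraries the smallest two-sided exact permutation p is 0.1, so no gene can pass 0.05 on height alone. Summits at the histone genes rested on 19 to 530 fragments in KO and 63 to 653 in WT, a counting error of 4.34% to 22.9% in KO and 3.91% to 12.6% in WT.

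**Figure D2:**
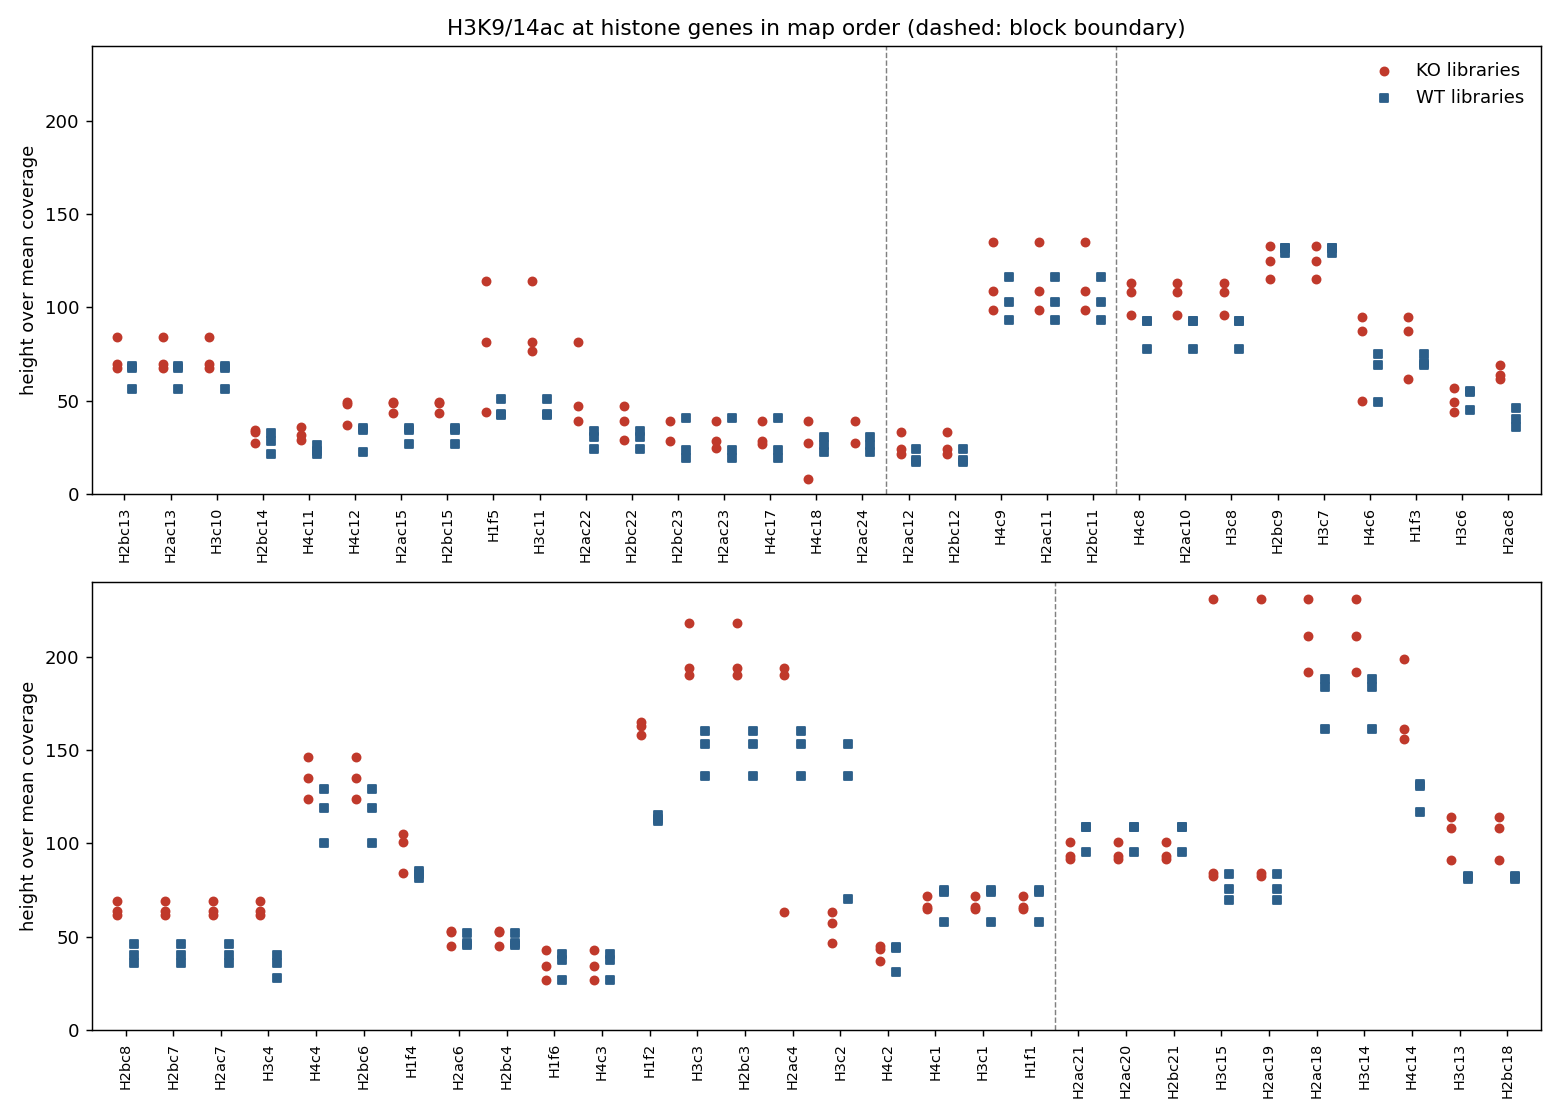
Relative height (fragments at the summit divided by the mean coverage of the library) at each of the 61 histone genes in map order, with KO libraries as circles on the left of each gene and WT libraries as squares on the right. Dashed lines separate the 4 blocks, each gene has the tallest peak touching its window, and neighbours that take the same peak have equal values; H1f2, H3c3 and H4c14 are among the genes at which every KO point lies above every WT point.

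Among the linker histone genes the tallest peak was at H1f2 (chromosome 13, 23738807 to 23739531), a somatic H1 gene. Its relative height was 163, 165 and 158 in KO and 115, 113 and 112 in WT, a log2 ratio of 0.52 (exact permutation p = 0.1, two-sided, n = 3 each). All KO libraries lay above all WT libraries. At H1f5 the peaks with a summit in the window had 48.6, 50.2 and 43.8 in KO and 42.1, 42.8 and 50.8 in WT. The genotypes overlap there, and the taller values of 114 and 81.7 plotted for KO replicates 1 and 2 are those of the separate peak at H3c11. H1f1 takes the height of the peak at H4c1 and H3c1, with 71.9, 65.9 and 65.1 in KO and 57.9, 73.8 and 75.1 in WT, and in WT replicate 2 the peak with a summit in its own window had 23.0. The genotypes overlap at H1f1, and likewise at H1f3, H1f4 and H1f6.

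Among H2A and H2B genes the tallest peaks were at H2ac18 (chromosome 3, 96245497 to 96246052), which shares its peak with H3c14, and H2bc3 (chromosome 13, 23746734 to 23747223), which shares its peak with H3c3. The first pair had a relative height of 211, 231 and 192 in KO and 161, 188 and 184 in WT, a log2 ratio of 0.25 (exact permutation p = 0.1, n = 3 each). H2bc3 and H3c3 had 218, 190 and 194 in KO and 153, 136 and 160 in WT, a log2 ratio of 0.42 (exact permutation p = 0.1, n = 3 each). Both pairs were higher in KO without overlap, and the first carries the limit on copies given above.

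The head-to-head pair H2ac8 and H2bc8 in block 3 takes its height, as does H2bc7, from a peak whose summit lies between H2bc8 and H2bc7. That relative height was 63.8, 69.0 and 61.5 in KO and 36.1, 40.2 and 46.1 in WT, a log2 ratio of 0.67 (exact permutation p = 0.1, n = 3 each). H2ac7, the partner of H2bc7, had 45.4, 45.0 and 40.1 in KO and 28.1, 23.5 and 27.9 in WT at peaks with a summit in its window. H2ac15 and H2bc15, another head-to-head pair, had 48.6, 41.9 and 43.2 in KO and 26.6, 34.2 and 35.4 in WT by the same condition. All these genes were higher in KO in every library. H2ac22 and its partner H2bc22 had 47.0, 28.8 and 39.1 in KO and 24.3, 30.4 and 33.7 in WT at peaks with a summit in the window. The genotypes overlap there, with KO replicate 2 among the WT libraries, and H2ac22 counts among the 22 only through a value of 81.7 in that library that belongs to the peak at H3c11. H2bc14, which stands alone, had 33.5, 34.1 and 27.6 in KO and 21.6, 32.7 and 28.6 in WT, with overlap.

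H2ac10 and H3c8 had 106, 72.5 and 60.9 in KO and 49.4, 39.9 and 46.5 in WT at a peak with its summit between them, without overlap. The neighbouring peak at H4c8 is separate, with 113, 108 and 95.8 in KO and 77.5, 92.5 and 92.9 in WT, also without overlap. H2ac21, H2ac20 and H2bc21 share a peak with 93.5, 101 and 91.7 in KO and 95.3, 109 and 109 in WT. The genotypes overlap there. H2bc13 and H2ac13 share theirs with H3c10, with 84.3, 69.9 and 67.7 in KO and 67.7, 56.3 and 68.4 in WT, again with overlap. H2ac19 and H3c15 had 82.7, 77.3 and 84.4 in KO and 69.7, 83.6 and 75.4 in WT at peaks with a summit in the window, with overlap. The 231 plotted for KO replicate 2 is that of the peak at H2ac18. H2ac4 had 63.2, 190 and 194 in KO and 153, 136 and 160 in WT, where all but KO replicate 1 take the height of the peak joined to H3c3.

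Of the H3 genes, H3c14 and H3c3 head the order, as given with their H2A and H2B neighbours. H3c11 (chromosome 13, 21782915 to 21783397) had a relative height of 114, 81.7 and 76.6 in KO and 39.6, 38.5 and 39.7 in WT at peaks with a summit in its window, without overlap. With the tallest peak touching the window, which in WT is that at H1f5, its log2 ratio was 0.98, the highest of the 59 genes (exact permutation p = 0.1, n = 3 each). H3c4 had 45.4, 45.0 and 40.1 in KO and 28.1, 23.5 and 27.9 in WT at peaks with a summit in its window. Both were higher in KO in every library. H3c2 had 63.2, 57.6 and 46.4 in KO and 153, 136 and 70.4 in WT, the merged peaks described above. H3c13, with its neighbour H2bc18, had 108, 114 and 91.1 in KO and 82.2, 81.0 and 82.8 in WT.

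The tallest H4 peak was at H4c14 (chromosome 3, 96262934 to 96263317), with 161, 199 and 156 in KO and 117, 131 and 132 in WT, a log2 ratio of 0.44 (exact permutation p = 0.1, n = 3 each). H4c12 had 48.1, 49.3 and 37.0 in KO and 22.3, 26.1 and 25.3 in WT at peaks with a summit in its window. Both genes were higher in KO without overlap, and H4c12 has the near copy H4c11. H4c3, under the peak it shares with H1f6, had 34.1, 42.8 and 27.1 in KO and 27.1, 37.6 and 40.7 in WT, with overlap. H4c18, the copy of H4c17, had 38.9, 8.3 and 27.1 in KO and 22.3, 26.1 and 30.6 in WT, where KO replicate 2 holds the lowest value of any histone gene.

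The authors' deposited table tests KO against WT over regions made of 150 bp windows, and gives for each region an FDR and the log2 fold change of its best window. Of its regions, 53 lay within 2 kb of a histone gene end. By the authors' deposited table, a total of 13 of the 53 (24.5%) were higher in KO at an FDR under 0.05, against a background of 6.18% among 13142 regions at the ends of protein-coding genes and 12.7% among all regions. By the authors' deposited table, a total of 7 of the 53 (13.2%) were lower, against 55.4% at gene ends and 46.3% among all regions. The median log2 fold change of the 53 regions was -0.26 in the authors' deposited table, against -0.73 at the ends of all genes. With each gene taking the call of its most significant region, the authors' deposited table made 22 of the 61 histone genes higher and 13 lower, where the background was 6.40% higher and 64.3% lower. Since 43 of the 53 regions touch 2 or more histone genes, the genes are not independent of each other.

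The scale of the authors' deposited table differs from that of relative height. Over 1019 narrow regions the log2 ratio of relative height exceeded the log2 fold change of the authors' deposited table by 0.30, and with that shift the medians become 0.04 at the histone genes and -0.43 at all gene ends. The sign of the median at the histone genes thus depends on the scaling; the same shift applies to every region, so it leaves differences between sets of regions as they are by construction.

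The region with the largest rise, 1.43 on the log2 scale with an FDR of 5.37e-08 in the authors' deposited table, covers H2ac8, H2bc8 and H2bc7, reaches the first bases of H2ac7 and ends within 2 kb of H3c4 (chromosome 13, 23570251 to 23574450). An adjoining region within 2 kb of H2bc7, H2ac7 and H3c4 (23574901 to 23576550) rose by 0.68 with an FDR of 0.00701 in the authors' deposited table. Peaks over the adjoining region had a relative height of 45.4, 45.0 and 40.1 in KO and 28.1, 23.5 and 23.6 in WT, without overlap.

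In block 1 there were 5 regions that rose. In the authors' deposited table, a region at H3c11 and within 2 kb of H1f5 (21782551 to 21784650) had a log2 fold change of 1.28 and an FDR of 3.3e-08. The region at H4c12 (21749251 to 21751200) had 1.22 and an FDR of 4.7e-07 in the authors' deposited table. The next one, at H4c12, H2ac15 and H2bc15, had 1.14 and an FDR of 4.23e-05 in the authors' deposited table. Smaller rises stood at H2bc14 (0.84, FDR 0.0176) and at H2ac22 and H2bc22 (0.65, FDR 0.0358) in the authors' deposited table.

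On chromosome 3 the rises were at the H3 copies and beside H2bc21. The authors' deposited table gave the region at H2ac18 and H3c14 (96247351 to 96248100) a log2 fold change of 1.37 with an FDR of 6.97e-07. The one at H3c15 and H2ac19 (96237601 to 96238650) had 1.27 with an FDR of 9.67e-08 in the authors' deposited table. Peaks over that second region had a relative height of 68.6, 55.0 and 51.0 in KO and 20.8, 21.2 and 22.2 in WT. The region beside H2bc21 (96225601 to 96226050) had 1.06 with an FDR of 1.19e-04 in the authors' deposited table, and was touched by a peak in 3 KO and 0 WT libraries. Those peaks had 21.1, 55.0 and 51.0 in KO replicates 1, 2 and 3. The values of replicates 2 and 3 equal those over the region at H3c15 and H2ac19, and whether the same peaks reach both was not examined.

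Rises and falls stood side by side at 2 pairs of genes in block 3, as they did at H2bc21 on chromosome 3. In the authors' deposited table H3c3 and H2bc3 adjoin a region that rose by 0.86 (FDR 3.09e-04) and one that fell by 0.67 (FDR 0.011). H2ac4 and H3c2 adjoin one that rose by 0.89 (FDR 0.00452) and one that fell by 0.68 (FDR 0.00253) in the authors' deposited table. The remaining rise, at H2ac10 and H3c8, was 0.79 with an FDR of 8.4e-04 in the authors' deposited table. In all, 24 of the 61 genes lay within 2 kb of a region that rose, 16 of one that fell, 5 of both and 26 of neither. The share of all genes near such regions was not computed, so these counts only describe the clusters.

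The largest fall in the authors' deposited table was at H4c1, H3c1 and H1f1 (chromosome 13, 23759401 to 23764050), by 0.98 on the log2 scale with an FDR of 0.00689. It was followed in the authors' deposited table by a region at H2bc13, H2ac13 and H3c10 that fell by 0.93 (FDR 0.0153) and one at H4c6 and H1f3 that fell by 0.82 (FDR 0.0384). The region at H2ac21, H2ac20 and H2bc21 fell by 0.65 (FDR 0.0407) in the authors' deposited table. At H1f6 and H4c3 the log2 fold change in the authors' deposited table was -0.72, with an FDR of 0.0708. H1f2 shows how the measures can part: its region fell by 0.63 (FDR 0.0377) in the authors' deposited table, with the best window 2669 bp from the gene start, while the summit was higher in every KO library.

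**Figure D3:**
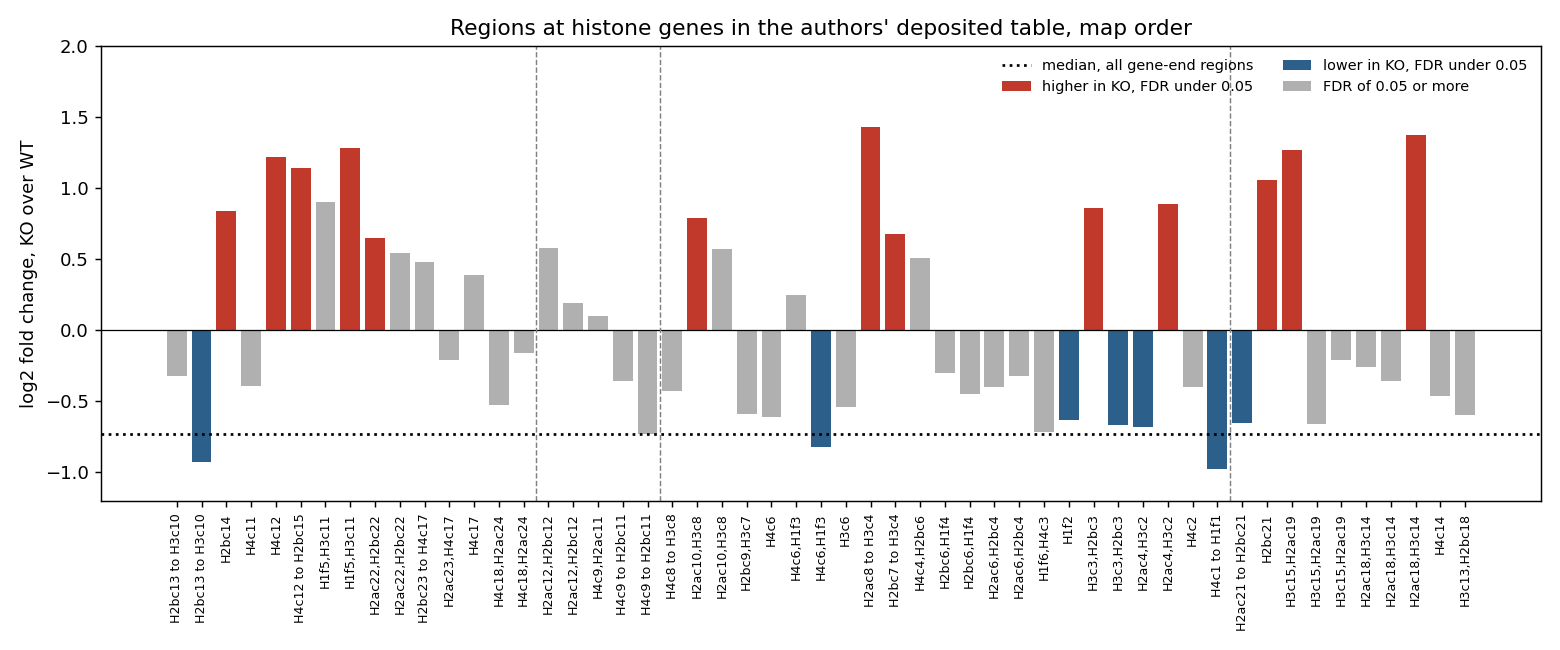
Log2 fold change of KO over WT, from the authors' deposited table, for the 53 regions within 2 kb of a histone gene end, in map order. Bars above 0 in red are the 13 regions higher in KO and bars below 0 in blue the 7 lower at an FDR under 0.05, grey bars did not pass; the dotted line is the median of all gene-end regions, -0.73, and dashed lines separate blocks.

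By histone type, in the authors' deposited table, 8 of 23 regions at H3 genes rose (34.8%) and 4 fell (17.4%). At H2B genes 7 of 24 rose (29.2%) and 3 fell (12.5%) in the authors' deposited table. At H2A genes 8 of 30 rose (26.7%) and 3 fell (10.0%) in the authors' deposited table. H4 genes had 2 rises and 2 falls among 20 regions (10.0% each) in the authors' deposited table. H1 genes had 1 rise (11.1%) and 3 falls (33.3%) among 9 regions in the authors' deposited table. The background at the ends of all protein-coding genes was 6.18% higher and 55.4% lower. Regions near several types count for each, and differences between types were not tested. By block, in the authors' deposited table, 5 of 15 regions rose and 1 fell in block 1, 5 of 23 rose and 5 fell in block 3, and 3 of 10 rose and 1 fell in block 4. Block 2, with H2ac12, H2bc12, H4c9, H2ac11 and H2bc11, had neither among 5 regions of the authors' deposited table.

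The best windows of the regions that rose lay beside the genes. Among histone genes under 2000 bp, none of the 13 overlapped a gene span. Of the windows of regions that fell 3 of the 7 did, and 11 of the 33 of regions that did not pass. The 5 longer genes were left out of these counts. The best window of the falling region at H2ac21 and H2ac20 reached one of them, H2bc21. Of 12 rising regions with an annotated start within 4 kb, 0 had the best window within 300 bp of the nearest histone start, and the distances ran from 337 to 1623 bp. Of the 7 falling regions 4 were within 300 bp, and of 32 that did not pass 11 were. The background took all regions with a best window within 2 kb of a start of any gene, a narrower limit than 4 kb. Of these, 21.7% of those that rose, 21.1% of those that fell and 30.2% of the others were within 300 bp. This pattern was noticed in the data, rests on few windows and was not tested. Rising regions had a median width of 1050 bp, as did regions that did not pass, and falling ones had 3450 bp.

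**Figure D4:**
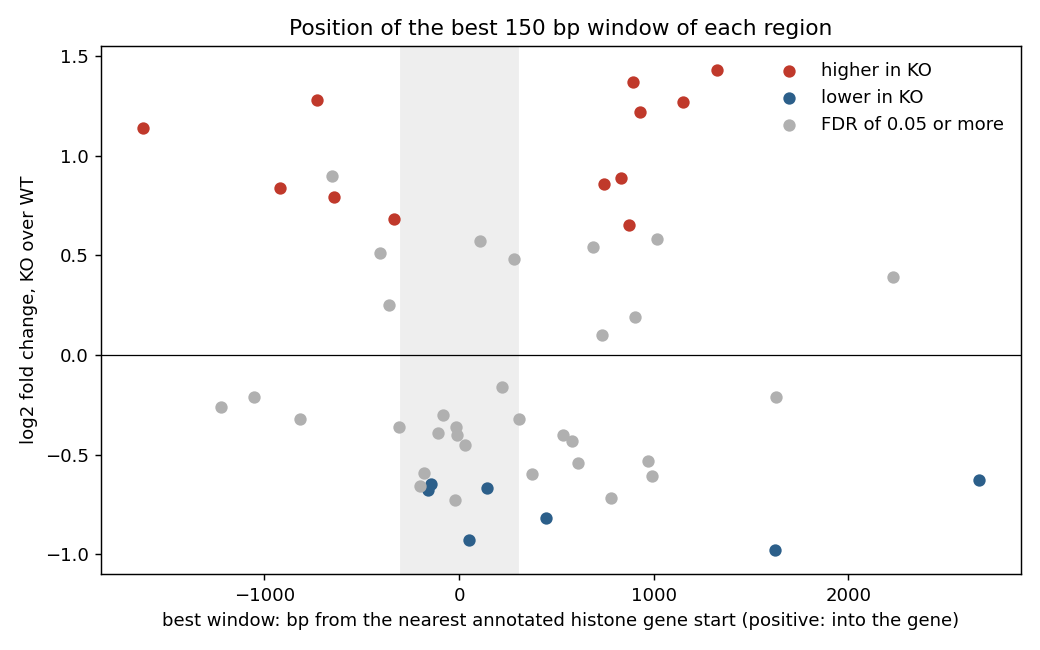
Log2 fold change of KO over WT in the authors' deposited table against the position of the best 150 bp window relative to the nearest annotated histone gene start (bp, positive into the gene and beyond). Each point is a region, red for higher and blue for lower in KO at an FDR under 0.05 and grey otherwise; the shaded band covers 300 bp on either side of the start, and it holds no red point.

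Histone genes outside the clusters gave mixed values. Of 9 replication-independent variant genes with a region in the authors' deposited table, 1 was higher (11.1%, background 6.40%) and 4 were lower (44.4%, background 64.3%). Each gene again takes its most significant region. The one that rose was H2ax, the variant phosphorylated at DNA breaks, by 2.21 with an FDR of 1.29e-18 in the authors' deposited table. Only 1 of the 2 regions at H2ax was called higher, and their mean log2 fold change in the authors' deposited table was 0.78. The relative height at H2ax was 68.6, 49.8 and 39.6 in KO and 33.8, 40.8 and 39.4 in WT, with overlap. H2az1, which encodes H2A.Z, fell by 0.96 (FDR 1.95e-04) in the authors' deposited table. In the authors' deposited table Cenpa, the centromeric H3, fell by 0.69, while H3f3a fell by 0.75 and H3f3b fell by 0.94, genes that both encode H3.3. Of 3 replication-dependent genes elsewhere, H2bu2 rose by 0.89 (FDR 0.00104), H4f16 fell by 0.67 (FDR 0.0142) and H2aw did not pass in the authors' deposited table.

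Genes that make and process histone transcripts were called at shares close to or below those over all genes. Of 17 with a region in the authors' deposited table, 9 were lower (52.9%, background 64.3%) and 1 was higher (5.88%, background 6.40%). Cpsf3, the endonuclease that cuts histone pre-mRNA, had a relative height of 87.6, 83.4 and 91.1 in KO and 116, 128 and 126 in WT, and fell by 1.39 (FDR 4.98e-11) in the authors' deposited table. Of the cyclin E genes, Ccne1 fell by 1.18 and Ccne2 fell by 1.26, and Cstf2, a cleavage factor, fell by 1.37 in the authors' deposited table. Zfp473, a component of the processing machinery, rose by 0.64 (FDR 0.00854) in the authors' deposited table. Of 15 histone chaperone and import genes the authors' deposited table had 13 lower (86.7%, background 64.3%) and 0 higher. The chaperone gene Nap1l4 fell by 1.38, Nasp fell by 1.40, Nap1l1 fell by 1.26 and Asf1a fell by 1.19 in the authors' deposited table. Relative height did not follow these calls at every gene. Asf1a had 86.5, 75.5 and 71.9 in KO and 68.4, 71.8 and 70.4 in WT. Every KO library lay above every WT library there, but the nearest values, 71.9 and 71.8, hardly differ. Nap1l4 had 145, 148 and 156 in KO and 138, 171 and 151 in WT, with overlap, and the genotypes also overlap at Ccne1 and Ccne2. At Nap1l1 the values were 33.5, 38.0 and 36.5 in KO and 50.4, 59.2 and 62.0 in WT, lower in KO without overlap. Of the 49 other protein-coding genes inside the intervals, 6 had a region in the authors' deposited table, with 1 lower (Abt1, which fell by 0.57) and 0 higher. One of the 6 is H4bc24, whose regions are those already counted for H4c18 and H2ac24.

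**Figure D5:**
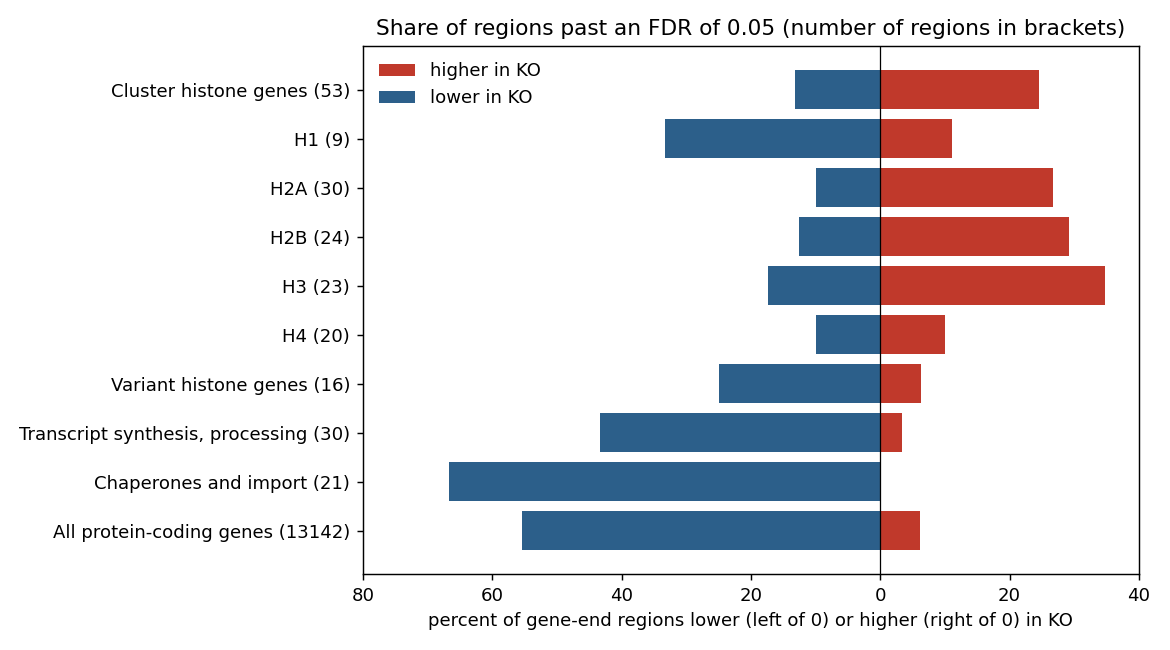
Percent of gene-end regions of the authors' deposited table that were higher (red, right of 0) or lower (blue, left of 0) in KO at an FDR under 0.05, for the cluster histone genes, each histone type, 3 lists of related genes and all protein-coding genes. Numbers of regions are in brackets; the cluster histone genes have 24.5% higher and 13.2% lower, all protein-coding genes 6.18% higher and 55.4% lower.

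Over the whole series, 39264 to 40582 peaks were listed per KO library and 40997 to 43507 per WT library. The tallest peak at Slc2a3 had a relative height of 44.3, 42.8 and 46.9 in KO and 83.7, 86.4 and 93.3 in WT, and that at Cd4 had 920, 922 and 889 in KO and 150, 161 and 165 in WT. Slc2a3 is the gene targeted in KO, and only the KO cells are labelled as carrying Cd4-cre. The part of the deletion and of the transgene in these heights was not tested. Of the T helper markers, Cd3e, Cd3d, Cd4 and Cd28 had peaks in all libraries. Il17a and Il23r had peaks in all libraries as well, Il17f in 1 KO and 3 WT libraries, and Rora had none at its ends. Of the 4 CD8 T and NK, 4 B cell and 4 myeloid markers, 1 each (Cd8b1, Cd79a and Cd14) had peaks in all libraries. Of the 3 erythroid markers looked for, Klf1 had peaks in 2 KO and 3 WT libraries. Fewer cells of a type and less acetylation per cell cannot be told apart in such bulk chromatin, and the part of other cells in the histone values was not tested.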

How the data were processed

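The members, the gene lists and the position pattern were chosen with earlier results of these data known. Values in every library were given for the tallest member of each histone type, the 5 members lowest and the 5 highest by mean log2 fold change, and members touching a region called higher; of each related list, up to 4 called genes per direction are named by lowest FDR.

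Per the submitters' processing notes, which give no roles, the software included MACS2 2.2.6, Bowtie2 2.3.5.1, cutadapt 2.8, deepTools 3.3.2 and bcl2fastq 2.20.0.422, and the builds named are mm10 and GRCm38. The authors deposited 1 peak list per ChIP library from paired fragments and 1 from single reads. Each deposited peak has a score, a fold enrichment ratio and the −log10 of its p-value and q-value; the scores and q-values served only as filters or were not used. The authors' deposited differential table gives counts of windows, a log2 fold change, a p-value and an FDR per region, and its signs were settled from regions with peaks in 3 libraries of 1 genotype only: 99.5% of 1064 KO-only regions are positive and 99.9% of 2730 WT-only regions negative. The program behind it, its scaling and its use of the 6 input libraries, which were not analysed here, are not stated in the labels or headers. It holds no value per library.

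Chromosomes of regions came from the deposited list of 24128 called regions; 16440 others were rebuilt from their windows, 319 have only their best window and 22 were not located. The number of fragments at each summit was solved from the deposited fold and −log10 p to within 0.01, which succeeded for 99.6% to 100.0% of peaks, and divided by the lowest background value that 50 or more peaks have in common, taken as mean coverage. Depth thus ranged from 1.85 to 2.29 fragments in KO and 2.97 to 3.99 in WT. The recovery was tested on simulated data. A gene took the tallest peak touching the 2 kb around either end. Genotypes were compared by non-overlap and exact permutation. Computation used Python 3.11.15, numpy 2.4.6, pandas 2.3.3 and scipy 1.17.1, with Biopython 1.88 for sequence alignment. Alternatives were other thresholds, windows, scalings and peak lists, and leaving out each library. Hist3h2bb-ps and Trac were not matched in the gene table.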

Additional observations from a re-analysis of the deposited data

How the results depend on the processing

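At an FDR under 0.01 the regions lower in KO numbered 2 and those higher 11, and beyond a log2 fold change of 1 in size they numbered 0 and 7. With windows of 1 kb the counts were 7 lower and 12 higher of 51 regions, and with 5 kb 9 and 16 of 61. Members treated as having a near-identical copy were H4c11, H4c12, H4c17, H4c18, H3c14, H3c15, H2ac18 and H2ac19. Without them, an alternative added after seeing the data, 7 were lower and 9 higher of 39. H2ac18 and H2ac19 were put on that list although their upstream stretches were less than 80% identical. Shares over all regions were not computed at any of these settings, so the region counts only describe the clusters. The median log2 fold change of the regions was 0.04 when scaled by mean coverage. Counting only genes with 0.5 or more of the span under a peak, 31 had one in all 3 KO libraries and 38 in all 3 WT libraries. The median log2 ratio of relative height was -0.55 for heights without division by mean coverage, and the cause was not tested; by construction such heights carry the lower KO depth. The count of members higher in KO without overlap was 0 for those heights, 10 with the deposited fold, 6 with the single-read lists and deposited fold together and 13 when each set of shared peaks counted once, against 22. Leaving out 1 library at a time gave 0.19 to 0.33 for the median height ratio, 22 to 32 for that count, -0.05 to 0.04 for the ratio of covered bp, 59 to 60 genes with a peak in the remaining KO libraries and 61 to 61 in the WT ones. Shares over all genes were not computed for these counts, nor for those by span covered or by sets of shared peaks. Whether replicate numbers pair the libraries is not settled. Deviations of same-numbered libraries correlated at 0.02, 0.04 and 0.03, and each library correlated best with its own number. Correlations this weak cannot decide it. With the replicate block the ratios were 0.23 for height and 0.00 for covered bp. The differential table holds no value per library, so its calls could not be recomputed without a library or with the block. Coverage of 1.85 to 3.99 fragments limits the low peaks, such as that at H4c18.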
